A study of Abies pinsapo with 24 samples.

Results

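Spanish fir (Abies pinsapo) needles and roots were compared for how their transcripts changed from autumn to spring at Yunquera, the lower of 2 mountain sites, and the features described here are those whose season change differed between the organs. For each of the 51046 features in the deposited count table, the difference was the season change in needles (spring minus autumn) minus the season change in roots, on the log2 scale. It was tested in the 12 Yunquera libraries, 3 in each of 4 groups, with edgeR's quasi-likelihood test and a Benjamini-Hochberg adjustment. Of 19120 features with enough reads to be tested, 27 had an adjusted p under 0.05 (0.141%). In 15 of them (0.0785%) the difference was above 0, so that spring was higher relative to autumn in needles than in roots. In 12 (0.0628%) it was below 0.

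The 4 groups were needles in autumn, needles in spring, roots in autumn and roots in spring, all from trees growing wild at 1100 to 1200 m, 30 to 50 years old, with no treatment and no genotype given. Autumn material was collected in September 2022 and spring material in May 2023, so season and year of harvest cannot be told apart. The labels give 3 numbered individuals at Yunquera, called trees 1, 2 and 3 below on the reading that a number stands for 1 tree throughout; the protocol speaks of 6 independent trees at both sites together, while the series text speaks of more trees per occasion. Needle RNA and root RNA were extracted by different methods, so a level in needles against roots cannot be told apart from the method, whereas a season change within an organ compares RNA extracted in the same way as far as the labels say.

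Galactinol synthases make galactinol from UDP-galactose and myo-inositol, the committed step towards raffinose-family sugars, which plants store and which accumulate under cold and drought. Chloroplast genes for carbon fixation are mainly active in green tissue, and thioredoxins carry reducing power from the photosystems to the enzymes of the Calvin cycle. Evergreen conifer needles last through several seasons and are hardened against cold in autumn and winter, while fine roots grow and die in flushes and live together with fungi. Gene names in the text are the best protein hits that the file gives in other species, and they are not established in fir.

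Library totals ran from 14494067 to 25423980 counted reads, so 3 reads in a library, the floor used here, corresponded to 0.104 to 0.222 CPM. Levels are CPM, the share of a library's reads on a common scale, scaled by the trimmed mean of M-values. Photosystem and light-harvesting features, the 137 needle markers by name, held 3.11% to 5.57% of the reads of every needle library but only 0.0478% to 0.126% of those from roots, so the organ labels held in all 12. Features with a fungal best hit took 4.01% of the reads in the autumn roots of tree 2 and 0.688% to 1.30% in the other libraries. None of the 27 features had a fungal or bacterial best hit, but 9 of them had no best hit at all. Of the 19120 features tested, 510 had a fungal and 256 a bacterial best hit, so none among 27 says little about these features. In bulk tissue, fewer cells of a type and less RNA per cell cannot be told apart.

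Season changed 1126 features in roots (5.89%), of which 524 rose (2.74%) and 602 fell (3.15%). In needles it changed 168 (0.879%), of which 81 rose (0.424%) and 87 fell (0.455%). With the tree as a block within each organ, 524 features passed in roots and 19 in needles. Of the 27 features, the season change passed the test in roots for 20, in needles for 12 and in both organs for 5. The most frequent pattern, in 11 features, was a fall in roots with no change called in needles. Then came 6 features that fell in needles with no change called in roots, and 4 that rose in roots with none called in needles. In 3 features needles rose while roots fell, and in 1 needles fell while roots rose. A further 1 rose in both organs by different amounts, and 1 rose in needles with no change called in roots.

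The organ with the higher level was a further way to read these features. In autumn 18 of the 27 were higher in needles, 3 were higher in roots and 6 did not differ past the threshold, against 11.4% of all features tested that were higher in needles and 7.82% higher in roots in that season (19.2% together). In spring 15 were higher in needles, 6 were higher in roots and 6 did not differ past it, against 11.9% and 4.69% of all features (16.6% together). In 7 features the higher organ switched, with both seasons past the threshold. The 2 galactinol synthases went from roots in autumn to needles in spring, and PME53, PCK1, DIR1 and 2 features without a best hit went from needles to roots. Another 8 were higher in needles in both seasons, among them the 2 Calvin cycle genes and 3 thioredoxin-domain genes. The shares of all features that switched or stayed higher in needles are not given here, so these counts have no comparison. The 27 were chosen for a changed difference between the organs, so a switch adds no support.

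**Figure D1:**
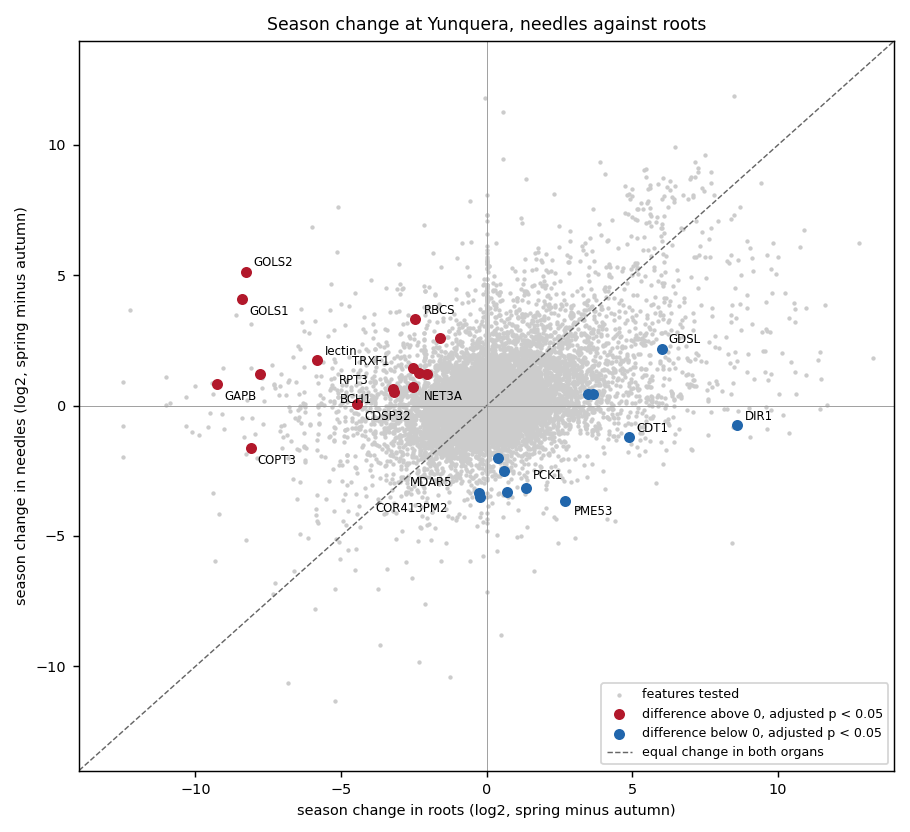
Season change in roots (horizontal axis, log2, spring minus autumn) against season change in needles (vertical axis, log2) for the 19120 features tested at Yunquera, with 3 features beyond the axes. Red points are the 15 features whose difference between the organs was above 0, blue points the 12 below 0, and distance from the dashed line is the difference; named points carry their best hit, and GOLS1 and GOLS2 lie farthest to the upper left.

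The autumn and spring libraries did not overlap in needles for 23 of the 27 and in roots for 23, which describes features chosen for passing in these libraries and adds no support. The share of all features tested without such overlap is not given here, so these counts have no comparison. How many features passed depended on single libraries. With 1 library left out at a time, the counts of the 27 that still passed were 5, 9 and 5 for autumn needles of trees 1, 2 and 3, and 9, 3 and 7 for spring needles. For autumn roots they were 20, 20 and 26, and for spring roots 13, 14 and 27. The totals called in these fits were 6, 9, 5, 10, 3 and 7 without a needle library, 40, 34 and 92 without an autumn root library, and 15, 18 and 105 without a spring root library. With the tree as a block 7 features passed, all among the 27, and with the tree as a block within each organ 29 passed, 13 of them among the 27. DESeq2 called all 27, as it did 4.02% of all features. Scaling by library totals alone gave 15 calls above 0 and 18 below, against 15 and 12. The fit without both needle libraries of tree 1, whose deviations from their group means were correlated at -0.31 between the seasons, called 9 features, 6 of them among the 27.

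The 2 galactinol synthases had the largest differences of all 27 features, rising in needles and falling in roots. For the feature with best hit GOLS2, the needle libraries of trees 1, 2 and 3 held 2.67, 1.03 and 2.42 CPM in autumn and 8.75, 90.6 and 118 CPM in spring. Roots measured 332, 158 and 81.8 CPM in autumn and 0.45, 0.502 and 0.917 CPM in spring. Every spring needle library was above every autumn needle library, though tree 1 rose less than the others, and every spring root library was below 1 CPM and far under each autumn one. The season change was 5.14 ± 0.92 (SE) in needles and -8.25 ± 1.06 in roots on the log2 scale, with edgeR adjusted p of 0.0307 and 0.00421. The difference between the organs was 13.39 ± 1.40 (SE; edgeR adjusted p = 0.0076).

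The GOLS1 feature followed the same course. Needles of trees 1, 2 and 3 measured 2.49, 0.862 and 1.53 CPM in autumn and 4.61, 42.2 and 37.1 CPM in spring. In autumn roots the values were 168, 160.3 and 99 CPM, and in spring roots 0.45, 0.602 and 0.183 CPM. The seasons did not overlap in either organ, and tree 1 again had the smallest needle rise. Its level changed by 4.10 ± 0.76 (SE) in needles and by -8.41 ± 0.93 in roots on the log2 scale (edgeR adjusted p = 0.0345 and 0.00216). The organs differed by 12.52 ± 1.20 (SE; edgeR adjusted p = 0.0076). Needles minus roots came to -6.45 in autumn and 6.07 in spring on the log2 scale for GOLS1, and to -6.54 and 6.85 for GOLS2. Both calls held in each of the 12 fits that left out 1 library, where the log2 difference ran from 11.99 to 12.96 for GOLS1 and from 12.66 to 13.86 for GOLS2. The largest edgeR adjusted p in these fits was 0.0485 for each, close to the threshold. In the fit of all 24 libraries as labelled, GOLS1 and GOLS2 missed it (edgeR adjusted p = 0.0682 and 0.0778). Both also held with the tree as a block (edgeR adjusted p = 0.0291 and 0.0334); with the block within each organ GOLS1 held (adjusted p = 0.0411) and GOLS2 missed the threshold (adjusted p = 0.0519). With the needles of tree 1 left out the adjusted p was 0.00127 and 0.0028.

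The file holds 7 features tested with a galactinol synthase best hit, a family gathered after the values above were seen. The difference was above 0 in 6 of the 7, and an unadjusted p under 0.05 was reached by the same number, against 7.08% of all features in that direction. Both counts include the called GOLS1 and GOLS2 features, which prompted the family. Another GOLS1-type feature, Gene_3136, held 1520.4, 1578 and 1509.5 CPM in autumn needles and 3740.0, 2930.2 and 3467 CPM in spring needles. Its autumn roots varied widely between trees, at 156, 489 and 0.889 CPM, its spring roots held 3.5, 33.8 and 6.42 CPM, and the difference did not pass. GOLS4 (Gene_73279) fell in roots (log2 change -5.05; edgeR adjusted p = 0.0114) and was lower in spring in the needles as well, where the change of -2.13 did not pass. Raffinose synthases, which add galactose from galactinol to sucrose, had no called difference among 8 features tested, 3 of them above 0. How reads shared between near-identical copies were counted is not given in the sources used here, so values of single copies are uncertain.

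**Figure D2:**
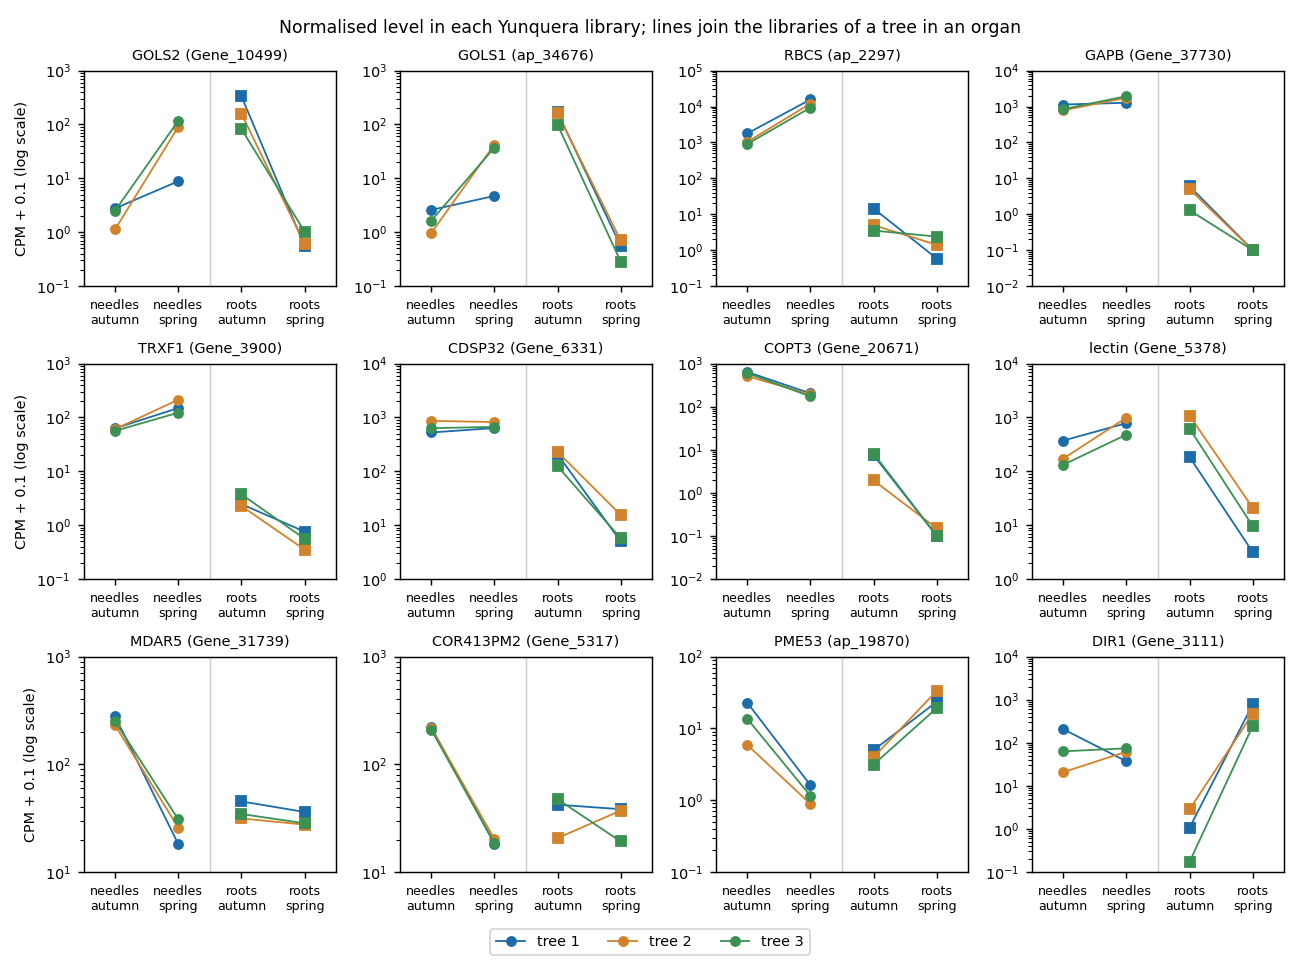
Normalised level (CPM plus 0.1, log axis) of 12 of the 27 features in each Yunquera library; circles are needles, squares are roots, and each line joins the autumn and spring libraries of 1 tree. GOLS1 and GOLS2 rise in needles and drop in roots, GAPB and COPT3 drop in roots to 0 or a single read, and MDAR5 and COR413PM2 drop in needles with little movement in roots.

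The best hits of 6 called features are named as chloroplast proteins, and 5 of their differences were above 0. These 5 were the small subunit of Rubisco (RBCS), the B subunit of chloroplast glyceraldehyde-3-phosphate dehydrogenase (GAPB), thioredoxin F1 (TRXF1), the thioredoxin-like protein CDSP32 and a beta-carotene hydroxylase (BCH1), which makes xanthophylls. In 4 of them the root level fell in spring and no change was called in needles, and in RBCS the needle level rose. The sixth, MDAR5, named as chloroplastic or mitochondrial, fell in needles, had a difference of -3.08 and is given further on.

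RBCS, the Rubisco subunit encoded in the nucleus, rose in needles in every tree. In autumn needles trees 1, 2 and 3 gave 1776, 1030.0 and 902 CPM, and in spring needles 15710.0, 12056 and 9323 CPM. Autumn roots held 14.3, 4.86 and 3.41 CPM, and spring roots 0.485, 1.3 and 2.29 CPM. The seasons did not overlap in either organ, and the needles gained several-fold while the roots, low throughout, were lower in spring in each tree. The needle change was 3.32 ± 0.65 (SE; edgeR adjusted p = 0.0447) and the root change -2.48 ± 0.65 (adjusted p = 0.0504), the latter just outside the threshold. The difference of 5.80 ± 0.92 (SE) passed at an edgeR adjusted p of 0.047. It did not pass with the tree as a block (0.102) or with the block within each organ (0.153). It was lost without any 1 of the needle libraries, of the autumn root libraries of trees 1 and 2, or of the spring root libraries of trees 1 and 2, with an adjusted p of 0.179 at most. Another RBCS-type feature, on reference sequence ap_13651, had 125, 145 and 131 CPM in autumn needles and 104, 156 and 127 CPM in spring needles, with no needle change called (-0.05 on the log2 scale; edgeR adjusted p = 0.985). Its root fall of -4.19 passed (edgeR adjusted p = 0.00788), from a mean of 0.615 CPM to 0.0268 CPM. Roots held more of Gene_76988 (RBCS-1A), at a mean of 421 CPM in autumn and 316 CPM in spring, and of Gene_3191 (RBCS), at 84.0 and 72.1 CPM. Neither root change passed (edgeR adjusted p = 0.509 and 0.867), and their differences between the organs, -0.32 and -0.94, did not pass.

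GAPB catalyses the reducing step of the Calvin cycle in chloroplasts. Autumn needles held 1138, 782 and 847 CPM in trees 1, 2 and 3, and spring needles 1274, 1756 and 1946 CPM. The 3 root libraries of autumn read 5.91, 4.86 and 1.18 CPM and those of spring 0, 0 and 0 CPM. Needle levels were high in both seasons, while roots held a few CPM in autumn and no read in spring. Against a floor of 3 reads over the 3 spring root libraries, the root level was at least 98.4-fold lower in spring. The edgeR test of the difference gave an adjusted p of 0.0224, and the needle change of 0.85 ± 0.48 (SE) did not pass (edgeR adjusted p = 0.541). With the tree as a block the adjusted p was 0.061, and with the block within each organ it was 0.0442. The call was lost without any 1 of the autumn needle libraries or without the spring needles of tree 2 or 3, at 0.101 at most.

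TRXF1, which activates Calvin cycle enzymes in the light, showed higher spring needles and lower spring roots. The 3 needle libraries of autumn read 62.7, 60.7 and 56.4 CPM and those of spring 149.8, 214 and 123 CPM. The root libraries held 2.35, 2.17 and 3.63 CPM in autumn and 0.658, 0.251 and 0.458 CPM in spring. The seasons did not overlap in either organ. The root fall of -2.53 ± 0.37 (SE) passed (edgeR adjusted p = 0.00678), and the needle change of 1.44 ± 0.32 (SE) did not (0.0663). The organs differed by 3.96 ± 0.49 (SE; edgeR adjusted p = 0.016; 0.057 with the tree as a block, 0.0442 with the block within each organ), and the call was lost without any 1 of the autumn needle libraries or the spring needles of tree 2. Gene_61378, with a thioredoxin domain but no best hit and no known location, moved in the same directions. The needle libraries of trees 1, 2 and 3 held 281, 317 and 273 CPM in autumn and 648, 927 and 503 CPM in spring. Roots measured 16.1, 13.9 and 18.4 CPM in autumn and 4.57, 1.71 and 3.3 CPM in spring. Its seasons did not overlap in either organ, and its difference was 3.58 ± 0.48 (SE; edgeR adjusted p = 0.0246). That call held with the block within each organ (0.0411) and was lost with the tree as a block over both organs (0.061), without any 1 of the autumn needle libraries, and without the spring needles of tree 1 or 2 (0.114 at most).

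CDSP32, a chloroplast thioredoxin known in Arabidopsis and potato for its induction by drought and its reduction of peroxiredoxin, fell in roots with no change called in needles. Needles of trees 1, 2 and 3 measured 526, 864 and 633 CPM in autumn and 636, 822 and 669 CPM in spring. In autumn roots the values were 207, 229.7 and 124 CPM, and in spring roots 4.88, 15.4 and 5.59 CPM. Needle seasons overlapped, and each spring root library was far below each autumn one. Roots held 27.7% of the needle mean in autumn and 1.22% in spring. The root fall was -4.44 ± 0.49 (SE; edgeR adjusted p = 0.00205) and the needle change 0.07 ± 0.42 (adjusted p = 0.978). The difference of 4.51 ± 0.62 (SE) passed with an edgeR adjusted p of 0.0247 and also with the tree as a block (0.0291). It was lost without any 1 of the needle libraries or without the spring roots of tree 1 (0.13 at most).

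BCH1 did not differ between needles and roots past the threshold in autumn and was higher in needles in spring. In autumn needles trees 1, 2 and 3 gave 104, 104 and 112 CPM, and in spring needles 129, 176 and 155 CPM. Autumn roots held 84.4, 47.2 and 119 CPM, and spring roots 7, 5.07 and 15.4 CPM. The spring roots were clearly lower in all trees, and spring needles were somewhat higher. The root fall was -3.19 ± 0.44 (SE; edgeR adjusted p = 0.0059), and the organs differed by 3.71 ± 0.60 (SE; edgeR adjusted p = 0.0471; 0.057 with the tree as a block, 0.0224 with the block within each organ). The call was lost without any 1 of the needle libraries, the autumn roots of tree 1, or the spring roots of trees 1 and 2.

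The catalytic chain of ferredoxin-thioredoxin reductase (FTRC, Gene_5362), which passes electrons to these thioredoxins, lay just outside the threshold with a log2 difference of 3.98 ± 0.66 (SE; edgeR adjusted p = 0.0513). In roots it measured 13.2, 5.65 and 5.33 CPM in autumn and 0.658, 1.4 and 0.458 CPM in spring. The FTRC feature Gene_31774 went from a mean of 1.30 CPM in autumn roots to 0 CPM in spring roots. The FTRC feature highest in roots, Gene_5880, held 25.6 and 35.2 CPM there, and its difference of 0.08 did not pass. Thioredoxin F2 (Gene_4387) held 89.9 CPM in autumn roots and 82.0 CPM in spring roots, with no root change called (log2 change -0.13, edgeR adjusted p = 0.869). Of the 13 features with names of the chloroplast thioredoxin system, gathered after values were seen, 9 had a difference above 0, against 52.7% of all features. Of 22 features with Calvin cycle names, which include a methyltransferase of aldolase, 16 lay above 0, and 3 had no read in roots, so that only their needle change was measured. The 2 features called in each family (0.0785% of all features were called above 0) are the ones that prompted it. The photosystem list took 3.11% to 4.60% of reads in autumn needles and 4.40% to 5.57% in spring needles. These needle seasons overlapped, and the share of tree 1 was lower in spring (4.40%) than in autumn (4.60%). In roots the list took 0.0850% to 0.126% in autumn and 0.0478% to 0.0808% in spring, without overlap. The carbon fixation list took 1.77% to 1.83% in autumn needles and 3.31% to 4.22% in spring needles. In roots its seasons overlapped, at 0.0970% to 0.115% in autumn and 0.0778% to 0.124% in spring, and the highest was spring roots of tree 3. The part of these shares in the results for the chloroplast genes was not tested.

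Another 4 named genes fell in roots in spring with no change called in needles: the copper transporter COPT3, a galactose-specific lectin, the phototropism protein RPT3 and the actin-binding protein NET3A. COPT3, of a family that takes up copper ions, was higher in autumn in both organs. Autumn needles held 640.1, 513 and 601 CPM in trees 1, 2 and 3, and spring needles 204, 192 and 173 CPM. The 3 root libraries of autumn read 7.4, 1.84 and 8.07 CPM and those of spring 0, 0.0502 and 0 CPM. Spring roots held a single read in 1 library and none in the others. From 266 reads in the autumn roots to 1 in the spring roots the ratio was 407, with a 95% counting interval of 72.4 to 16100, which covers counting error only. Needle levels were also lower in spring in each tree, without overlap, but the change of -1.62 ± 0.46 (SE) did not pass (edgeR adjusted p = 0.139). The difference between the organs passed with an edgeR adjusted p of 0.0324 (0.0713 with the tree as a block, 0.0624 with the block within each organ). It was lost without any 1 of the needle libraries, the autumn roots of tree 1, or the spring roots of trees 1 and 2 (0.128 at most).

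The lectin feature (Gene_5378), which carries a jacalin-type sugar-binding domain, was high in both organs in autumn and nearly lost from roots in spring. The 3 needle libraries of autumn read 372, 172 and 132 CPM and those of spring 786, 994 and 481 CPM. The root libraries held 183, 1073 and 620.3 CPM in autumn and 3.05, 20.8 and 9.44 CPM in spring. Root seasons did not overlap, and needle levels were higher in spring in every tree. The roots fell by 5.82 ± 0.88 (SE) on the log2 scale (edgeR adjusted p = 0.00767), and the needle change of 1.74 ± 0.74 (SE) did not pass (adjusted p = 0.342). The organs differed by 7.56 ± 1.13 (SE; edgeR adjusted p = 0.0324; 0.061 with the tree as a block and 0.0111 with the block within each organ). It was lost without any 1 of the needle libraries, the autumn roots of tree 2, or the spring roots of tree 1 (0.155 at most). The autumn roots of tree 2 had both the highest lectin level among roots and the highest share of fungal best hits, and the part of that share in the result was not tested. Among 17 jacalin-domain features tested, gathered after values were seen, 15 had a difference above 0, 9 had an unadjusted p under 0.05 in that direction against 7.08% of all features, and 1 passed the adjusted test. The called lectin, which prompted the family, was counted in each of these numbers.

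RPT3, a protein of phototropin signalling in Arabidopsis, was higher in needles than in roots in both seasons. The needle libraries of trees 1, 2 and 3 held 109, 87.3 and 119 CPM in autumn and 110.1, 170.0 and 208 CPM in spring. Roots measured 15.2, 8.61 and 14.3 CPM in autumn and 1.7, 1.2 and 1.15 CPM in spring. Spring roots were lower than autumn roots in each tree without overlap. The root fall was -3.22 ± 0.33 (SE; edgeR adjusted p = 0.00189), the needle change of 0.63 ± 0.30 (SE) did not pass (adjusted p = 0.409), and the organs differed by 3.85 ± 0.44 (SE; adjusted p = 0.0114). The difference passed with the tree as a block (0.035) and was lost without the autumn needles of tree 1 or 3 or the spring needles of tree 2 (0.0533 to 0.0626). NET3A, which links actin filaments to membranes in Arabidopsis, did not differ between the organs past the threshold in autumn and was higher in needles in spring. Needles of trees 1, 2 and 3 measured 55.4, 53.5 and 53.6 CPM in autumn and 93.3, 74.1 and 99.1 CPM in spring. In autumn roots the values were 37.2, 52.6 and 42.6 CPM, and in spring roots 10.8, 4.26 and 7.61 CPM. Roots were lower in spring in each tree, and needles were higher, without overlap in either organ. The organs differed by 3.26 ± 0.44 (SE; edgeR adjusted p = 0.0246; 0.0582 with the tree as a block, 0.0993 with the block within each organ). The root fall was -2.54 ± 0.32 (adjusted p = 0.00405), and the call was lost without any 1 of the needle libraries (0.114 at most).

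A set of 3 named genes fell in needles in spring with no change called in roots: MDAR5, COR413PM2 and PCK1. MDAR5, a monodehydroascorbate reductase named as chloroplastic or mitochondrial, regenerates the antioxidant ascorbate. In autumn needles trees 1, 2 and 3 gave 278, 230.2 and 250.1 CPM, and in spring needles 18, 25.7 and 30.7 CPM. Autumn roots held 45.1, 31.3 and 34.4 CPM, and spring roots 36, 27.4 and 28.2 CPM. The needle levels dropped in all 3 trees to near those of the roots, and the root libraries lay within a narrow band in both seasons. The needle fall was -3.35 ± 0.26 (SE; edgeR adjusted p = 0.000843) and the root change -0.27 ± 0.24 (SE; adjusted p = 0.558). The difference of -3.08 ± 0.35 (SE) had an edgeR adjusted p of 0.0114, and 0.0423 with the tree as a block. It was lost only without the spring needles of tree 2 (0.0626), among the 12 fits that left out 1 library. Of the 3 monodehydroascorbate reductases tested, this was the only one called.

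COR413PM2, a plasma membrane protein of a cold-regulated family, fell in needles in the same way. Autumn needles held 222, 217 and 209.9 CPM in trees 1, 2 and 3, and spring needles 18.2, 20.1 and 18.4 CPM. The 3 root libraries of autumn read 42.1, 20.6 and 47.3 CPM and those of spring 38.2, 37.1 and 19.1 CPM. Needle values were tight within each season and far apart between seasons, while the root seasons overlapped. The needle fall was -3.51 ± 0.36 (SE; edgeR adjusted p = 0.0045), the root change was -0.22 ± 0.33 (SE; adjusted p = 0.765), and the organs differed by -3.29 ± 0.47 (SE; adjusted p = 0.0291). With the tree as a block the edgeR adjusted p was 0.0732, and with the block within each organ it was 0.123. The call was lost without any 1 of the needle libraries or the spring roots of tree 1 or 2 (0.117 at most). Of 6 features with a COR413 best hit, gathered after values were seen, 3 fell in needles and 1 fell in roots, against 0.455% and 3.15% of all features. COR413PM2, which prompted the family, was 1 of the 3 that fell in needles. Of the other COR413PM2-type features, Gene_16165 and Gene_82874 changed by 1.40 and 2.29 in needles and Gene_82714 by -0.55. All of these were at a few CPM at most, and none passed. The chloroplast-type COR413IM1 (Gene_5089) measured 1734, 1841 and 1922 CPM in autumn needles and 504, 474 and 325 CPM in spring needles, and 369, 368 and 318 CPM in autumn roots and 151, 105 and 178 CPM in spring roots, so that it was lower in spring in both organs.

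PCK1 encodes phosphoenolpyruvate carboxykinase, which turns oxaloacetate into phosphoenolpyruvate for gluconeogenesis. The 3 needle libraries of autumn read 99.1, 46.6 and 59.9 CPM and those of spring 7.92, 9.26 and 6.08 CPM. The root libraries held 9.64, 17.5 and 31.8 CPM in autumn and 58, 50.3 and 41.4 CPM in spring. Needles were lower in spring and roots higher, each without overlap. The needle fall of -3.14 ± 0.45 (SE) passed (edgeR adjusted p = 0.0131), and the root change of 1.35 ± 0.43 (SE) did not (adjusted p = 0.0856). The difference was -4.49 ± 0.62 (SE; edgeR adjusted p = 0.0247; 0.0713 with the tree as a block, 0.0849 with the block within each organ). It was lost without the autumn needles of tree 1 or 3, any 1 of the spring needle libraries, the autumn roots of tree 2, or the spring roots of tree 1 or 2 (0.0916 at most). Of the other 2 carboxykinase features tested, both had differences above 0, opposite to PCK1, and neither passed.

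Roots rose in spring in 4 named genes whose differences were below 0: PME53, the GDSL esterase At5g03610, DIR1 and CDT1. PME53, a pectinesterase that removes methyl groups from cell wall pectin, was the 1 feature that fell in needles and rose in roots. The needle libraries of trees 1, 2 and 3 held 22.7, 5.8 and 13.5 CPM in autumn and 1.52, 0.787 and 1.05 CPM in spring. Roots measured 4.88, 3.88 and 3.04 CPM in autumn and 23.4, 33.2 and 19.1 CPM in spring. The seasons were apart in both organs, in opposite directions. The changes were -3.64 ± 0.54 (SE) in needles and 2.68 ± 0.51 in roots (edgeR adjusted p = 0.0139 and 0.0171), and they differed by -6.32 ± 0.74 (SE; adjusted p = 0.0117; 0.0334 with the tree as a block). The call was lost without the spring needles of tree 2 (0.0756) or tree 3 (0.0606). Among 19 features tested with pectinesterase or pectinesterase inhibitor names, 2 of them inhibitors alone, 4 rose and 1 fell in roots, against 2.74% and 3.15% of all features. PME53, which prompted the family, was counted among the 4. In needles none of the 19 passed as risen and only PME53 as fallen, against 0.424% and 0.455% of all features. The family's median season change was 1.64 in needles and 1.85 in roots on the log2 scale. Of the 19 differences, 8 lay above 0, against 52.7% of all features.

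The GDSL esterase, of a large family of lipid-cleaving enzymes, rose in both organs, and far more in roots. Needles of trees 1, 2 and 3 measured 16.8, 10.3 and 9.42 CPM in autumn and 59.4, 37.8 and 68.4 CPM in spring. In autumn roots the values were 1.66, 1.38 and 1.04 CPM, and in spring roots 56.2, 128 and 79.9 CPM. No spring library overlapped an autumn library in its organ. The rise was 2.18 ± 0.38 (SE) in needles and 6.00 ± 0.46 in roots (edgeR adjusted p = 0.0302 and 0.00047). The organs differed by -3.82 ± 0.55 (SE; edgeR adjusted p = 0.0291; 0.0724 with the tree as a block, 0.0735 with the block within each organ). The call was lost without any 1 of the needle libraries, the autumn roots of tree 2, or the spring roots of tree 2 (0.108 at most).

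DIR1, a lipid-transfer protein needed for systemic acquired resistance in Arabidopsis, had the largest root rise of the 27 features. In autumn needles trees 1, 2 and 3 gave 206, 20.7 and 63.1 CPM, and in spring needles 36.9, 62.1 and 74.3 CPM. Autumn roots held 0.976, 2.76 and 0.074 CPM, and spring roots 783, 477 and 248 CPM. Root seasons were far apart, and needle seasons overlapped. The root rise was 8.61 ± 1.22 (SE; edgeR adjusted p = 0.00629), and the needle change was -0.74 ± 0.87 (SE; adjusted p = 0.83). The organs differed by -9.35 ± 1.45 (SE; edgeR adjusted p = 0.0392; 0.0938 with the tree as a block, 0.0935 with the block within each organ). The call was lost without the autumn needles of tree 1 or 3, any 1 of the spring needle libraries, the autumn roots of tree 1, or the spring roots of tree 1 or 2 (0.171 at most).

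CDT1, a small cysteine-rich protein named for cadmium tolerance, was near the limit of detection in autumn roots. Autumn needles held 20.9, 17.2 and 25.4 CPM in trees 1, 2 and 3, and spring needles 13.7, 7.92 and 5.8 CPM. The 3 root libraries of autumn read 0.0574, 0 and 0.074 CPM and those of spring 1.42, 0.803 and 2.15 CPM. Autumn roots held 2 reads over the 3 libraries and spring roots 104, a ratio of 34 with a 95% counting interval of 9.18 to 284. Spring needles were below autumn needles in every tree, with a change of -1.21 ± 0.53 (SE) that did not pass (edgeR adjusted p = 0.358). The difference passed at an edgeR adjusted p of 0.0324 (0.061 with the tree as a block, 0.0667 with the block within each organ). It was lost without any 1 of the needle libraries, the autumn roots of tree 1, or the spring roots of tree 1 (0.141 at most).

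Of the 9 called features with no best hit, 4 had a difference above 0 and 5 below. Gene_4029 had the smallest adjusted p of these. The 3 needle libraries of autumn read 58.9, 51.8 and 67.4 CPM and those of spring 268, 411 and 400.1 CPM. The root libraries held 56.9, 55.3 and 74.9 CPM in autumn and 12.3, 22 and 27.8 CPM in spring. Autumn levels overlapped between the organs, needles rose in spring and roots fell, with no overlap in either. The changes were 2.60 ± 0.32 (SE) and -1.59 ± 0.31 (edgeR adjusted p = 0.00707 and 0.0176), and the difference was 4.19 ± 0.44 (SE; adjusted p = 0.0076). This call held in each of the 12 fits that left out 1 library (edgeR adjusted p 0.0485 at most) and with the tree as a block (0.0189). Gene_13060 rose in roots. The root libraries held 8.78, 14 and 19.8 CPM in autumn and 135, 183 and 155 CPM in spring. Needle levels were 31.7, 24.4 and 28.1 CPM in autumn and 37.8, 35.2 and 41.6 CPM in spring, and the log2 difference was -3.03 ± 0.40 (SE; edgeR adjusted p = 0.0244; 0.057 with the tree as a block, 0.0446 with the block within each organ). That call was lost in 6 of the 12 fits that left out 1 library (0.0908 at most). Gene_12657 fell in needles, from 123, 134 and 138 CPM in autumn to 49.2, 23.5 and 24.8 CPM in spring. Its roots held 202, 206 and 184 CPM in autumn and 234, 247 and 289 CPM in spring. The difference of -2.40 ± 0.39 (SE; edgeR adjusted p = 0.0478) was lost in 10 of the 12 such fits. It was also lost with the tree as a block (0.0974) and with the block within each organ (0.117). The other 5, leaving aside Gene_61378 above, had edgeR adjusted p of 0.0291 to 0.047. Of these, 3 had differences of -4.00 to -3.12 and 1 of 3.27. The fifth held 206 reads in autumn roots and 1 in spring roots, a ratio of 315 with a 95% counting interval of 55.9 to 12500. Each of these 5 calls was lost in 7 to 9 of the 12 fits that left out 1 library, and with the tree as a block, while 1 passed with the block within each organ (adjusted p = 0.0394).

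**Figure D3:**
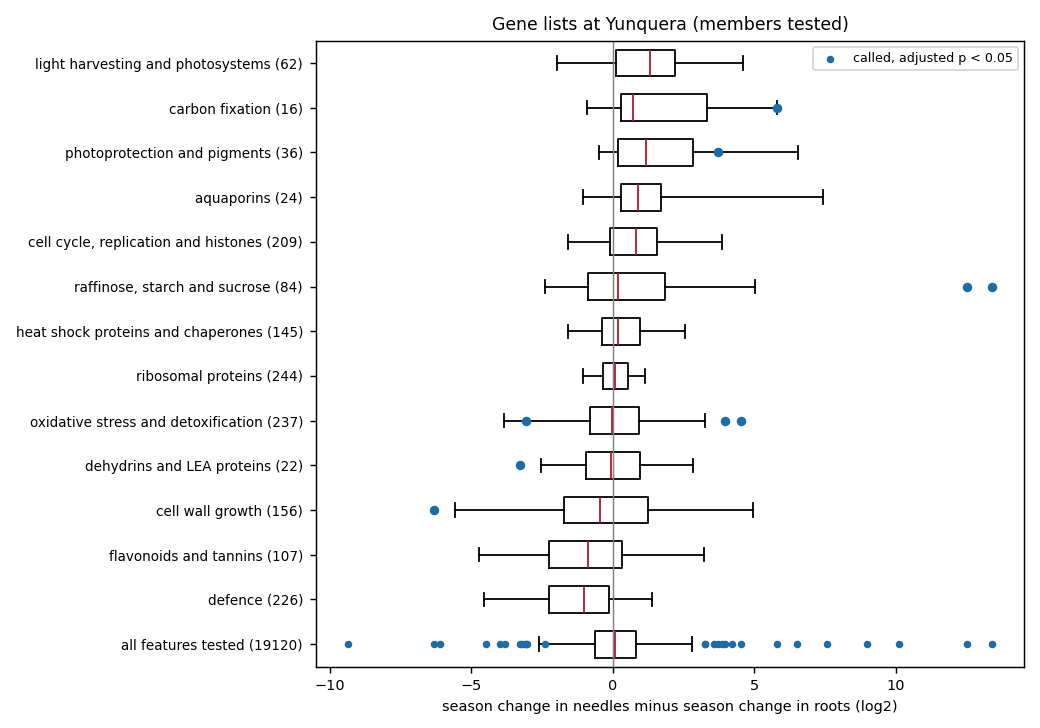
Log2 difference between the season changes of needles and roots at Yunquera for gene lists chosen by best-hit name and for all 19120 features tested (number tested in brackets). Boxes span the quartiles with the median in red, whiskers the 5th to 95th percentile, and blue points are called features; the boxes of the photosystem list and the defence list lie on opposite sides of 0 without a called feature in either.

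The called genes were set beside the lists their names belong to. Over all features the median difference was 0.07, with 52.7% above 0. In the light-harvesting and photosystem list, 48 of 62 features lay above 0 with a median of 1.30, none was called, and 21 against 2 had an unadjusted p under 0.05 (7.08% and 4.45% of all features). In roots 7 of these features fell and 1 rose (3.15% and 2.74% of all features). Pigment and photoprotection genes had a median of 1.16 over 36 features, and carbon fixation genes 0.70 over 16, with 1 called feature above 0 in each. Cell cycle, replication and histone genes had a median of 0.81 over 209 features and no call, with 34 against 2 at an unadjusted p under 0.05. Reads on that list took 0.653% to 0.797% of autumn needle libraries and 0.904% to 1.78% of spring needle libraries, against 1.14% to 1.33% in roots of both seasons. The 1.78% came from spring needles of tree 3, and the other spring needle libraries had 0.904% and 0.965%.

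Defence genes lay on the other side, with a median of -1.02 over 226 features, no call, and 30 below against 4 above 0 at an unadjusted p under 0.05. In roots 15 defence genes rose and 2 fell (2.74% and 3.15% of all features). Flavonoid and tannin genes had a median of -0.88 over 107 features and no call, and 24 of them rose in roots while 1 fell (the same 2.74% and 3.15%). Cell wall growth genes had a median of -0.45 over 156 features, with PME53 called, and 27 of them rose in roots while 3 fell (2.74% and 3.15% of all features). In needles 2 of them rose and 1 fell (0.424% and 0.455% of all features). Their median season change was alike in the organs, at 1.53 in needles and 1.64 in roots on the log2 scale. The xylem and secondary wall markers took 0.00748% to 0.0136% of autumn root libraries and 0.0391% to 0.0419% of spring root libraries. They were higher in spring in needles too, at 0.0042% to 0.012% in autumn and 0.0153% to 0.0513% in spring. The part of these markers in the cell wall counts was not tested. For raffinose, starch and sucrose the median was 0.19 over 84 features although it held the 2 galactinol synthases, and for dehydrins and late embryogenesis proteins it was -0.06 over 22, with COR413PM2 called. Cuticle, wax and suberin genes had a median of 0.30 over 103 features, with the GDSL esterase called. Oxidative stress and detoxification genes had a median of -0.03 over 237 features, with TRXF1 and CDSP32 called above 0 and MDAR5 below. Heat shock proteins and chaperones had a median of 0.20 over 145 features, and ribosomal proteins 0.07 over 244, both without a call. Features with a fungal best hit had a median of 0.40 over 510 and no call. Aquaporin genes had a median of 0.88 over 24 features and pollen or reproductive genes -2.08 over 15, again without a call. The other 11 lists, hormone pathways and transcription factors among them, had medians of -0.30 to 0.40 and no call.

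The same difference was measured at Ronda, the upper site, in libraries that had no part in choosing the 27 features. Trees 4 to 6 grew there, and 2 of the 12 Ronda libraries, spring needles of tree 6 and spring roots of tree 5, had gone against their labels in earlier results of these data and were left out, so that those groups held 2 libraries. In the 10 remaining libraries 26 of the 27 differences had the same sign as at Yunquera, against 68.1% of the 18141 features tested at both sites. An unadjusted p under 0.05 was reached by 23 of 27, against 13.2% of those features, and an adjusted p under 0.05 by 5 (0.497% of features tested at Ronda). The 5 were GOLS1, GOLS2, MDAR5, NET3A and RBCS. With all 12 Ronda libraries as labelled, 16 of 27 kept the sign and none of 18852 features passed (edgeR; 1913 had an unadjusted p under 0.05). The share of all features that kept the sign as labelled is not given here, so the count of 16 has no comparison. Of the 5, RBCS and NET3A changed sign as labelled, to -7.25 ± 4.02 and -0.13 ± 1.38 (SE; edgeR adjusted p = 0.526 and 0.981). As labelled, GOLS1 gave 1.88 ± 2.15, GOLS2 0.49 ± 2.47 and MDAR5 -2.54 ± 0.30 (SE; edgeR adjusted p = 0.763, 0.958 and 0.137).

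In the 10 Ronda libraries GOLS1 differed between the organs by 7.21 ± 0.86 (SE) and GOLS2 by 7.58 ± 0.77 on the log2 scale, with edgeR adjusted p of 0.019 and 0.0165. The Ronda needle libraries of GOLS1 held 10.9, 30.8 and 28.2 CPM in autumn and 133 and 175 CPM in spring. Its Ronda root libraries held 26.7, 15 and 12.2 CPM in autumn and 0.47 and 1.18 CPM in spring. Set beside the Yunquera values, which were scaled separately, autumn needles at Ronda were higher and autumn roots lower. The difference of RBCS in those 10 libraries was 5.97 ± 0.91 (SE; edgeR adjusted p = 0.0429), that of MDAR5 -2.62 ± 0.34 (SE; adjusted p = 0.0258) and that of NET3A 2.33 ± 0.37 (SE; adjusted p = 0.0475). The Ronda needle libraries of RBCS held 1552, 1971 and 2079.7 CPM in autumn and 9551 and 10954 CPM in spring. The spring needles of RBCS lay above the autumn needles without overlap at Yunquera and in the Ronda libraries that were kept. The spring needles of tree 6, left out here, had no part in that comparison. RPT3 alone had the opposite sign, with -0.35 ± 1.47 (SE; edgeR adjusted p = 0.975). PCK1 had -0.42 ± 1.49 (SE; adjusted p = 0.963), and its Ronda needles were low in autumn already, at 5.68, 5.1 and 6.2 CPM.

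**Figure D4:**
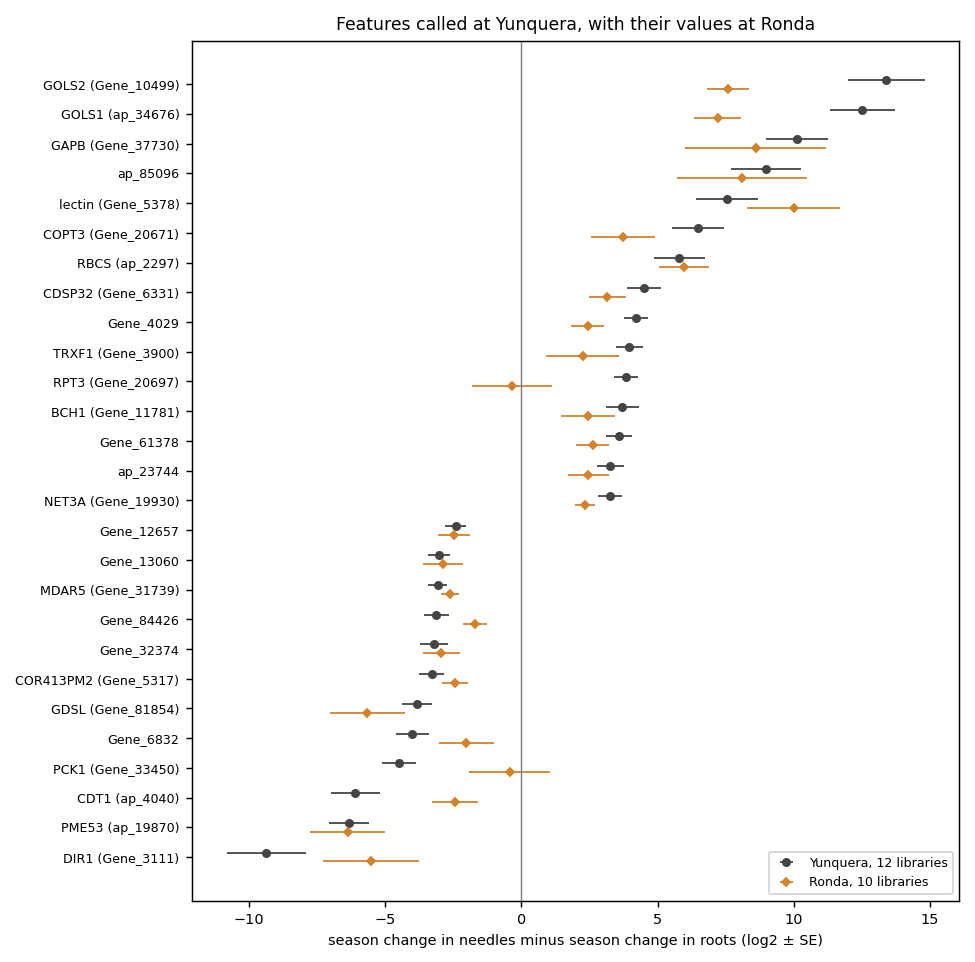
Season change in needles minus season change in roots (log2, with SE) for the 27 features, at Yunquera in 12 libraries (dark circles) and at Ronda in 10 libraries (orange diamonds). All but RPT3 lie on the same side of 0 at both sites in these libraries, and the 2 galactinol synthases are larger at Yunquera.

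The difference was smaller in size at Ronda for 22 of the 27 features, which were chosen for passing at Yunquera. A test of whether the organ difference in season change itself differed between the sites called none of 21600 features in the 22 libraries (edgeR; 707 had an unadjusted p under 0.05). Among the 27, 7 had an unadjusted p under 0.05 in that test, including GOLS1 (0.00153), GOLS2 (0.00163), CDT1 (0.00694), RPT3 (0.014) and PCK1 (0.0197), and each had an edgeR adjusted p of 1. No feature was therefore called particular to Yunquera.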

How the data were processed

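The authors deposited raw counts of reads for each feature in 24 libraries, not normalised per the file headers; the 12 from Yunquera entered the main comparison. The submitters' processing notes list CASAVA, HISAT2 and featureCounts. Their versions and settings, the genome build and the strand setting were not given in the sources. Per the labels' protocols some libraries were directional and some not, with no assignment to samples.

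Counts were kept where edgeR's filterByExpr (count minimum 10, total minimum 15) retained a feature (19120 of 51046; 23134 had no read in the 12 libraries), scaled by trimmed mean of M-values and fitted with edgeR 4.0.16 (R 4.3.3) as 4 group means with quasi-likelihood tests and Benjamini-Hochberg adjustment over all features tested. SE is the log2 difference divided by the square root of F. The script was tested on simulated data. The plot of levels by library uses CPM plus 0.1. DESeq2 1.42.0, other scalings, filters, blocks and left-out libraries were alternatives.

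Tree numbers were read as pairing the libraries, since the protocol names independent trees and both harvests; no label says so directly. Deviations from group means correlated at 0.17 to 0.20 between same-numbered root libraries (other numbers -0.12 to -0.06), at 0.32 to 0.45 for needles of trees 2 and 3 and at -0.31 for needles of tree 1 (other numbers in needles -0.64 to 0.44), so needle pairs did not stand apart. Replicates differed beyond sampling noise (lowest chi-square per degree of freedom 53). The p-values of the main fit measure the spread between libraries within a group and leave the pairing by tree unused. Those with the tree as a block take the pairing into account.

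Named genes were called features with an absolute log2 difference of at least 1, at least 5 CPM in the highest group and a named plant best hit: up to 24 list members (at most 3 a list), the 8 largest each way, and up to 10 changed oppositely in the organs. This took 16. RPT3, NET3A and the 9 features without a best hit were added after their values were seen, so that all 27 are accounted for. The comparison, the gene lists and the families were chosen with earlier results of these data known. No sequence was used.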

Additional observations from a re-analysis of the deposited data

Results flagged for a closer look

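Each of the 27 called features is listed because its season change differed between the 2 organs, by the edgeR test of the difference itself, with an adjusted p under 0.05. The log2 difference (needles minus roots) was 13.39 for GOLS2, 12.52 for GOLS1, 10.10 for GAPB, 7.56 for the lectin, 6.49 for COPT3 and 5.80 for RBCS. It was 4.51 for CDSP32, 4.19 for Gene_4029, 3.96 for TRXF1, 3.85 for RPT3, 3.71 for BCH1, 3.58 for Gene_61378 and 3.26 for NET3A. The remaining 2 features above 0, without a best hit, had 8.98 and 3.27.

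Below 0 the values were -9.35 for DIR1, -6.32 for PME53, -6.09 for CDT1, -4.49 for PCK1, -3.82 for the GDSL esterase, -3.29 for COR413PM2 and -3.08 for MDAR5. The 5 features without a best hit had -4.00, -3.21, -3.12, -3.03 and -2.40. The fitted values of GAPB, COPT3, CDT1 and the feature at 8.98 depend on a group with 0 to 2 reads and are not bounds.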

How the results depend on the processing

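Over 24 alternative settings the 27 features gave 648 values, of which none changed direction, 354 stayed past the threshold and 294 did not. All settings reuse Yunquera libraries in which the 27 were chosen, so the kept direction adds no support. DESeq2 called 769 features (460 above 0, 309 below), including all 27. Calls numbered 41 with no filter on low counts and 41 without fungal, animal and bacterial best hits (26 above and 15 below in both), each including the 27. In 22 libraries of both sites 95 were called (23 of the 27), and in all 24 as labelled 5 (4 of the 27). With the tree as a block (replicate block) 7 were called, without the needles of tree 1 the count was 9, and without tree 1 it was 3 (2 of the 27). Leaving out 1 library gave 3 to 105 calls, 3 to 10 for needle libraries and 15 to 105 for root libraries. Among these, the fit without the autumn roots of tree 2, whose fungal share stood apart, called 34. Other settings stayed within 1.5 times: DESeq2's size factors in edgeR gave 24, library totals 33 (15 above and 18 below, against 15 and 12), the block within organ 29 (13 of the 27), and 32 with the needles of tree 1 also left out (9 of the 27), so a like count held other features. The season change in needles passed for 19 features with the block within organ, 14 without the needles of tree 1 and 1174 in DESeq2; in roots these were 524, 571 and 3223. At Ronda 0 passed as labelled, against 96 without 2 libraries. With 3 libraries a group, features of a few CPM are limited by counting.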
